A study of Mus musculus with 35 samples.

Results

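T cell receptor gene segments are the variable (V), diversity (D), joining (J) and constant (C) pieces from which developing T cells build their antigen receptors. They were taken as the rows of the deposited count table whose name begins with Tra, Trb, Trg or Trd followed by v, d, j or c, with 10 or more counts summed over the 35 libraries. They were thus selected on their names and on their summed counts, with no test. This rule found 124 of 41096 rows. One of them, Tradd, is an adaptor of the TNF receptor that only shares the letters, and it was left out, so 123 segments are described. They comprised 51 Traj, 18 Trav and Trac of the alpha locus, 22 Trbv, 2 Trbd, 13 Trbj and 2 Trbc of the beta locus, 5 Trdv, 2 Trdd, 2 Trdj and Trdc of the delta locus, and 1 Trgv and 3 Trgj of the gamma locus. The alpha and delta segments lie on chromosome 14, the beta segments on chromosome 6 and the gamma segments on chromosome 13. At the lower edge, Trdd1 entered with 12 counts, Trav6d-3 with 36 and Trdd2 with 60. Just outside, Trav7-2 had 1 count and a further 11 rows had none. Of these 12 rows, 10 overlap another row. A further 70 rows annotated as receptor genes carry other names, 36 of them with 10 or more counts, and are not among the 123. Sums, shares and positions of a class thus cover its named rows, not the whole locus.

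An alpha beta T cell receptor is made of 1 alpha and 1 beta chain, and a gamma delta receptor of 1 gamma and 1 delta chain. RAG recombinase joins a V, sometimes a D, and a J segment on the chromosome, and splicing attaches the constant region. In the thymus the beta, gamma and delta loci rearrange at the double negative (DN) stage, before CD4 and CD8 appear. The alpha locus rearranges mainly at the later double positive (DP) stage, when a cell carries both. The delta locus lies inside the alpha locus, so an alpha rearrangement deletes it. Joining of Traj segments is known to start at the end of the array far from Trac and to move towards Trac in repeated rounds. Segments that have not rearranged can also be transcribed, and such germline transcripts precede recombination.

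Bulk RNA-seq was available from flow-sorted thymocytes of mice, in 7 groups of 5 libraries. Young DN and young DP cells came from wild-type mice aged 10 weeks, and aged DN and aged DP cells from wild-type mice aged 60 weeks. WT DN and WT DP cells came from 10-week Mettl3flox/wt; Cd4Cre mice, which have 1 floxed Mettl3 allele and carry the Cre transgene, so they are heterozygous controls and not wild type. KO DP cells came from 10-week Mettl3flox/flox; Cd4Cre mice. Mettl3 encodes the catalytic subunit of the RNA m6A methyltransferase. Under the Cd4 promoter, Cre is made, and floxed sequence removed, once a thymocyte turns Cd4 on. The labels do not say that replicates are separate animals, so the tests weigh differences against the spread among these libraries, which may be technical.

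The libraries held 12391908 to 18820157 counts. Levels are given as CPM (counts relative to the TMM-scaled library size), as mean ± SD of 5 libraries unless single libraries are given. Differences are log2 fold changes ± SE from edgeR's quasi-likelihood test. A call means that p, adjusted by Benjamini and Hochberg's method over all genes tested, was under 0.05. Counts at an unadjusted p under 0.05 are given without the share of all genes at that threshold. They therefore do not tell whether the segments differed more often than other genes. The table gives 1 count per segment row. How a read that spans a rearranged V and J was assigned, and whether strand was used, is not stated. Bulk levels do not tell fewer cells of a type from less RNA per cell.

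The sort labels were checked against marker genes. The summed level of 9 DP markers was 598 to 4266 CPM in the 15 DN libraries and 11575 to 21528 CPM in the 20 DP libraries, and that of 7 DN markers was 786 to 2642 CPM against 43.4 to 202 CPM. Neither range overlapped between the stages. Several libraries stood apart. B cell markers summed to 14570 CPM in aged DN 5 and 5775 CPM in WT DN 2, against 408 to 1436 CPM in the other DN libraries. In young DN 5, Cd4, Cd8a and Cd8b1 had 108, 159 and 123 CPM. The other young DN libraries had at most 16.7, 29.3 and 52.3 CPM. In KO DP 2, 12306 genes had a count, the fewest of all libraries. The gene-level Mettl3 count did not separate the genotypes: it was 49.7, 44.1, 53.4, 54.5 and 51.1 CPM in WT DP and 49.4, 61.5, 49.9, 51.7 and 48.1 CPM in KO DP. These ranges overlapped (log2 0.05 ± 0.11, edgeR adjusted p = 0.86). A count over the whole gene does not test whether the floxed part was removed.

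The D and J segments below are shown because their levels moved in opposite directions or because near-identical copies limit them. Sequences are those of the reference strain (GENCODE vM21, GRCm38), matched by symbol and read 5′ to 3′ on the coding strand. Capitals mark a pattern of 12 bases made of TT, any base, GG, any 4 bases, GG and any base, searched on that strand only, at its last match. It was found in 44 of 51 Traj, 11 of 13 Trbj, 2 of 2 Trdj and 0 of 3 Trgj members, or 57 of 69 joining segments. All 123 segments had a reference entry and 110 had the same length there as in the table.
Trbd1: gggacagggggc
Trbd2: gggactgggggggc
Trbj1-1: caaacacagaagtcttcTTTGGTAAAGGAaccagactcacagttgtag
Trbj1-2: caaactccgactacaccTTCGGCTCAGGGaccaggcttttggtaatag
Trbj1-5: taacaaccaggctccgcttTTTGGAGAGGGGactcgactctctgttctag
Trbj2-7: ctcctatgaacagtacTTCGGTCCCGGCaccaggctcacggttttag
Traj58: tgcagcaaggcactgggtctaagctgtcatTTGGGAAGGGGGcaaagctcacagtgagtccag
Traj7: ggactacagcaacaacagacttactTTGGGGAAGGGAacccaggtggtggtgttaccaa
Traj2: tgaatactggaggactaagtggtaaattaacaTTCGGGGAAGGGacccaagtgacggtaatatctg
Trgj1: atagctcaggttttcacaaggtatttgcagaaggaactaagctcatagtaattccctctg
Trgj3: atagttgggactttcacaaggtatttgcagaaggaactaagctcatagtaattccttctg
Trgj4: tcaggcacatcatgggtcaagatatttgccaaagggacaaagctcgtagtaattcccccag
Trgj1 and Trgj3 were 90.0% identical and shared a run of 44 bases, whereas Trgj4 was 68.9% identical to Trgj1. The constant genes Trbc1 and Trbc2 shared a run of 259 bases, so the split of reads between them is uncertain. The same holds for Trbv13-2 and Trbv13-3, which were 90.6% identical, and for Trav6-1 and Trav6-2, which were 93.0% identical. It also holds for Trdv2-1 and Trdv2-2, with a shared run of 221 bases, for Trav3-1 and Trav3-4, with 106, and for Trbv12-1 and Trbv12-2, which were 87.4% identical.

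The largest set of differences lay between the DN and DP stages. In young wild-type mice, most alpha and beta segments tested were higher in DP cells, except Trav17, Trav18, Trbd1 and Trbj1-1, which were lower. The gamma segments, Trdc, both Trdj segments and 1 of 3 Trdv segments tested were lower. Of the 123 segments, 98 passed the filter on low counts, and 81 of these rose and 12 fell in DP cells. In that comparison 70.4% of all 13772 genes tested were called, 33.9% higher and 36.5% lower. The median log2 difference was 1.996 over the segments tested and -0.01 over all genes tested. Segments that pass the filter only through the stage where they are high had to differ. With no filter, 94 rose and 13 fell among all 123, where 19.2% of all genes rose and 24% fell.

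The same stage comparison was made in aged wild-type mice and in Mettl3flox/wt; Cd4Cre mice, on separate libraries. In aged mice 70 segments rose and 9 fell among 99 tested, where 43.2% of all genes tested were called (18.6% up, 24.6% down). In the heterozygous mice 71 rose and 10 fell among 88 tested, where the share of all genes was 63.9%, 30.2% higher and 33.7% lower. With no filter 73 rose and 11 fell in aged mice, among 9.51% and 14.6% of all genes, and 95 and 11 in heterozygous mice, among 20.7% and 21.6%. Median log2 differences over the segments were 2.19 and 1.70, against -0.07 and -0.02 over all genes tested. Without aged DN 1, aged DN 5, aged DP 1 and aged DP 5, 95 of 100 segments tested were called in aged mice, where 61.1% of all genes were. With the replicate block 83 were called there, where 40.1% of all genes were.

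Trac encodes the only alpha constant region. In young DN cells it had 39.6, 35.2, 41.8, 42.2 and 75.1 CPM, and in young DP cells 423, 388, 420, 366 and 401 CPM. The lowest DP library was far above the highest DN library, young DN 5. Trac rose 8.65-fold (log2 3.11 ± 0.17, edgeR adjusted p = 3.8e-10). It also rose in aged mice, by log2 2.29 ± 0.25 (edgeR adjusted p = 9.6e-05), and in the heterozygous mice, by 2.56 ± 0.12 (edgeR adjusted p = 1.2e-09). In aged DN cells the 5 libraries had 138, 65.3, 67.6, 61.7 and 52.0 CPM, so aged DN 1 stood above the others.

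**Figure D1:**
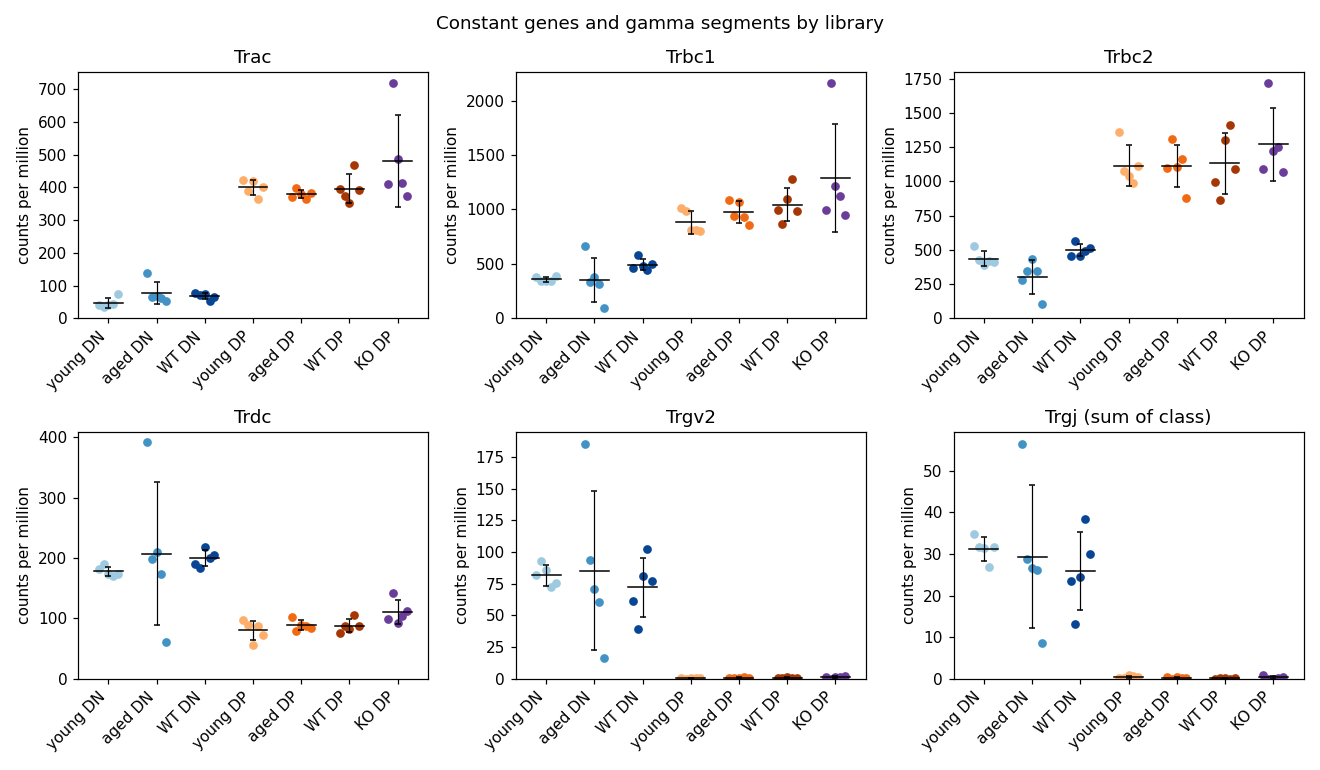
Level in CPM of the alpha, beta and delta constant genes, Trgv2 and the summed Trgj segments in each of 35 libraries (dots, in replicate order), with the mean and SD of 5 libraries per group (bars). Trac lies between 35.2 and 138 in the 15 DN libraries and at 353 or more in the 20 DP libraries, whereas Trgv2 is at 16.1 or more in DN libraries and at most 2.17 in DP libraries.

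The joining segments of the alpha locus moved with Trac. All 43 Traj segments tested in young mice rose in DP cells, as did all 33 tested in the heterozygous mice and 35 of 45 tested in aged mice. With no filter the counts were 50, 51 and 34 of 51. The summed Traj level was 11.7, 9.56, 10.2, 7.28 and 30.4 CPM in young DN libraries and 131, 213, 211, 212 and 202 CPM in young DP libraries. The groups did not overlap, young DN 5 being the highest DN library and young DP 1 the lowest DP library. Young DN 5 also had the most Cd4, Cd8a and Cd8b1 of the young DN libraries. Whether this bears on its Trac and Traj levels was not tested. In the WT DN libraries the sum was lower still, at 3.47 to 8.55 CPM, so most WT DN values rest on few reads.

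Per kilobase of row length, levels in DP cells were highest towards the end of the array next to Trac. The 17 segments from Traj21 to Traj2 held 59.6% ± 6.7 of Traj counts in young DP and 58.3% ± 6.7 in young DN libraries. In young DP cells Traj7 had 214 ± 67 CPM per kb and Traj2, the segment nearest Trac, 173 ± 33 CPM per kb, the highest of the 51. Traj57 and Traj56, near the far end, had 5.79 ± 5.5 and 9.61 ± 6.9 CPM per kb, the lowest. Traj59 and Traj58, the farthest, were intermediate at 46.6 ± 27 and 50.3 ± 18 CPM per kb. Traj7 and Traj2 did not differ beyond their spread. The same pair was highest in WT DP and in KO DP cells, with Traj7 first in WT DP and Traj2 first in KO DP.

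As examples, Traj2 had 9.18, 10.4, 14.1, 9.95 and 13.4 CPM in young DP libraries and 0.0667, 0.881, 0.686, 0.218 and 1.69 CPM in young DN libraries. Every DP value was above every DN value. Traj2 rose by log2 3.99 ± 0.41 in young mice (edgeR adjusted p = 5.5e-07), 3.03 ± 0.45 in aged mice (0.00061) and 4.69 ± 0.43 in the heterozygous mice (7.4e-07). Traj7 rose by log2 3.83 ± 0.35, 3.36 ± 0.53 and 5.01 ± 0.67 in the same comparisons (edgeR adjusted p = 1.3e-07, 0.00085 and 2.1e-05). Traj18, the joining segment of the invariant NKT receptor, and Traj33, that of the MAIT receptor, were among the segments that rose. Traj18 rose by log2 3.82 ± 0.55, 2.48 ± 0.64 and 4.08 ± 0.79 (edgeR adjusted p = 1.9e-05, 0.011 and 0.00050). Traj33 rose by log2 3.64 ± 0.51 and 3.77 ± 0.83 in young and aged mice (edgeR adjusted p = 1.4e-05 and 0.0047). In the heterozygous mice it had 1 count over the 5 WT DN libraries and 50, 63, 32, 20 and 37 counts in WT DP libraries. With so few DN reads, no fold is given. It passed the filter there through DP cells alone. So did Traj2, Traj7 and Traj18, which had at most 15, 16 and 9 counts in a WT DN library. Traj2, Traj7, Traj18 and Traj33 in young mice, and all of them but Traj2 in aged mice, also passed through DP cells alone. Segments in this state had to differ, and their folds rest on few DN reads.

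**Figure D2:**
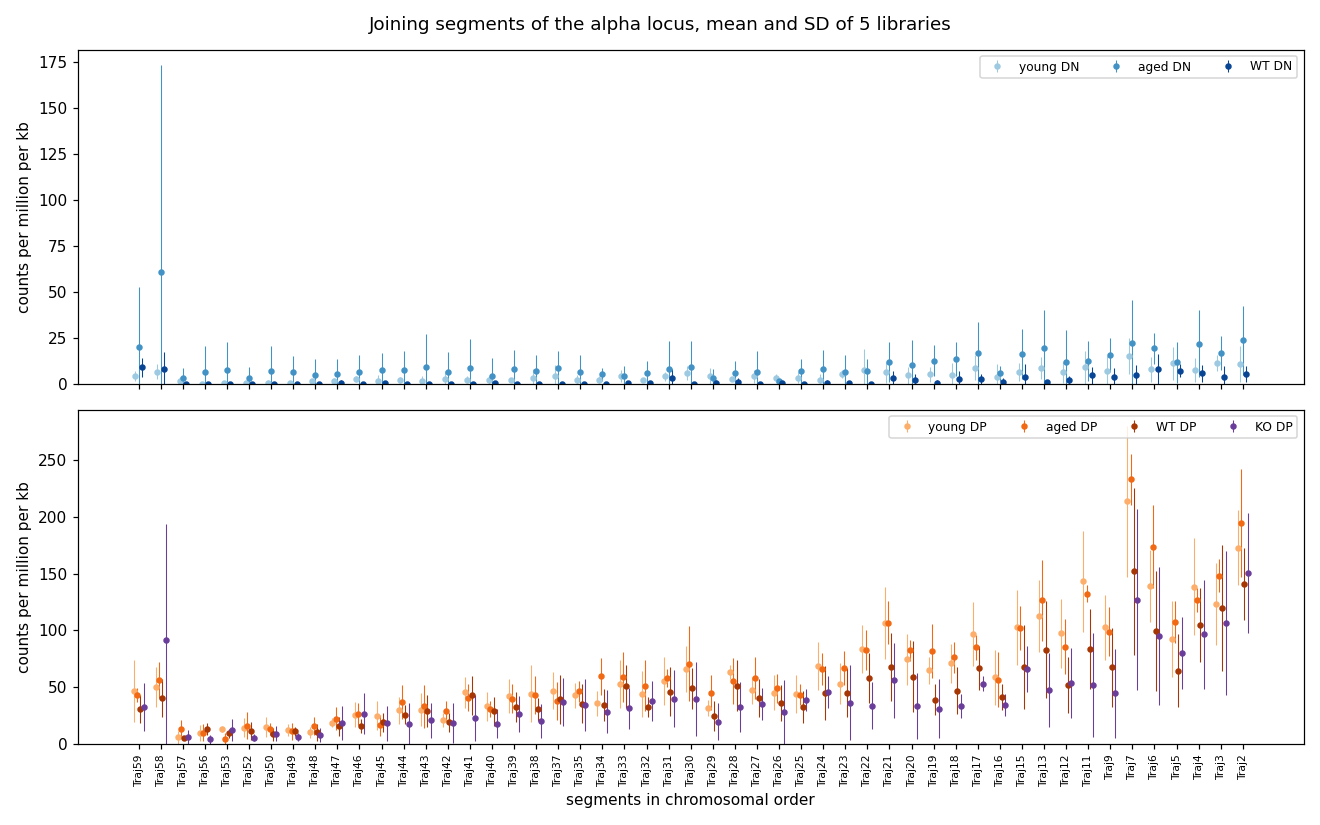
Level in CPM per kilobase of the 51 Traj segments in chromosomal order, from Traj59 to Traj2 next to Trac, as the mean and SD of 5 libraries (lower bars end at 0), for DN groups (upper panel) and DP groups (lower panel). The highest levels lie near Traj2 in the 4 DP groups, and Traj58 has wide bars in aged DN and KO DP, where 1 library is far above the rest.

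The average position of Traj reads did not follow the stage. On a scale from 0 for Traj59 to 1 for Traj2, the count-weighted mean was 0.66 ± 0.052 in young DN and 0.68 ± 0.044 in young DP libraries. It was 0.68 ± 0.015 in aged DP and 0.66 ± 0.030 in WT DP libraries. The differences between stages were smaller than the spread over DN libraries. In WT DN 2, with 61 Traj reads in all, the value was 0.27, and in aged DN 1 it was 0.46.

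In aged mice 10 of the 45 Traj segments tested were not called. They were Traj40 to Traj43, Traj45 to Traj48, Traj58 and Traj59, and all but Traj58 had a log2 difference of 1.08 to 2.76. Without the 4 aged libraries that stood apart, 8 of the 10 were tested and rose (edgeR adjusted p = 9.4e-05 to 0.018). Traj59 had log2 1.08 ± 0.82 (edgeR adjusted p = 0.32) and rose by 2.80 without aged DN 1 alone (0.0012). The level of Traj58 in aged DN libraries was 16.5, 0.842, 1.07, 0.759 and 0 CPM, and in aged DP libraries 5.37, 2.92, 3.21, 3.06 and 3.17 CPM. Aged DN 1 alone lay above the DP range. In the full comparison Traj58 had log2 -0.12 ± 1.1 (edgeR adjusted p = 0.94), and without aged DN 1 it rose by 2.36 (adjusted p = 0.012). In that library Traj58 made up 15.9% of Traj counts, 233 of 1467 (Clopper-Pearson 95% interval 14.05% to 17.9%, counting error only). In the same library 7 DN markers summed to 2642 CPM and the 10 NKT and NK markers to 897 CPM, both the highest of the aged DN group. There 12 gamma delta and innate-like markers summed to 11596 CPM. Their part in the result was not tested.

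The 18 Trav members gave few reads, 9408 over all libraries, and only 6 passed the filter in young mice. Receptor rows under other names are not in these values. Trav17 and Trav18 dominated DN cells. Together they held 74.9% ± 8.4 of Trav counts in young DN and 27.2% ± 3.1 in young DP libraries, 63.1% ± 6.9 against 28.3% ± 4.7 in aged, and 63.8% ± 7.9 against 32.9% ± 5.8 in the heterozygous mice. No DN library overlapped a DP library in this share.

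Trav18 had 4.87, 5.16, 3.24, 3.50 and 5.77 CPM in young DN and 2.04, 1.32, 1.05, 0.597 and 1.48 CPM in young DP libraries. All DP values were below all DN values. Trav18 fell by log2 1.77 ± 0.30 in young mice (edgeR adjusted p = 8.6e-05) and by 1.08 ± 0.36 in the heterozygous mice (0.019). In young mice it passed the filter through DN cells alone, so it had to differ there. The call in heterozygous mice was lost without WT DN 5, WT DP 3 or WT DP 5, at an adjusted p of 0.053 to 0.054. In aged mice it had log2 -0.89 ± 0.49 (adjusted p = 0.17), and it fell without aged DN 1 (0.031). Trav17 fell in young mice by log2 0.51 ± 0.20 (edgeR adjusted p = 0.037). That call was lost when any 1 of young DN 1, young DN 2, young DP 2, young DP 3 or young DP 5 was left out (0.060 to 0.12).

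Trav15-2-dv6-2, a segment of both alpha and delta, had 16, 9, 3, 1 and 32 counts in young DN and 4, 0, 3, 4 and 4 counts in young DP libraries, and it did not pass the filter. Trav4-3 had 0.14 ± 0.12 CPM in young DN and 1.88 ± 0.50 CPM in young DP cells, and it rose in all 3 stage comparisons, by log2 3.66 ± 0.48, 3.26 ± 0.45 and 3.63 ± 0.67 (edgeR adjusted p = 6.7e-06, 0.00041 and 0.00035). Trav3-4 rose likewise, by log2 4.44 ± 0.62, 2.95 ± 0.81 and 3.64 ± 0.87 (edgeR adjusted p = 1.3e-05, 0.014 and 0.0024). Trav4-3 and Trav3-4 passed the filter through DP cells alone, as did Trav21-dv12 in aged mice. Trav21-dv12, a segment that can join either alpha or delta, had 1.56 ± 0.65 CPM in young DN and 4.86 ± 1.5 CPM in young DP cells and rose by log2 1.64 ± 0.30, 1.61 ± 0.45 and 1.07 ± 0.26 (edgeR adjusted p = 0.00019, 0.015 and 0.0028). Trav19 had 0, 0, 0, 0 and 4 counts in WT DN and 32, 18, 27, 16 and 26 counts in WT DP libraries, and it passed the filter through WT DP alone. Trav1, the variable segment of the MAIT receptor, had 0.11 ± 0.22 CPM in young DN and 1.31 ± 0.67 CPM in young DP cells.

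The count-weighted Trav position, from 0 for Trav1 at the far end to 1 for Trav23, was 0.76 ± 0.024 in young DN and 0.63 ± 0.057 in young DP libraries. It was 0.76 ± 0.020 in WT DN and 0.66 ± 0.014 in WT DP libraries. Neither pair of groups overlapped. In aged mice it was 0.74 ± 0.050 and 0.67 ± 0.052, and the ranges overlapped. Among the Trav members, reads in DP cells came on average from segments farther from the Traj array in young and heterozygous mice.

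**Figure D3:**
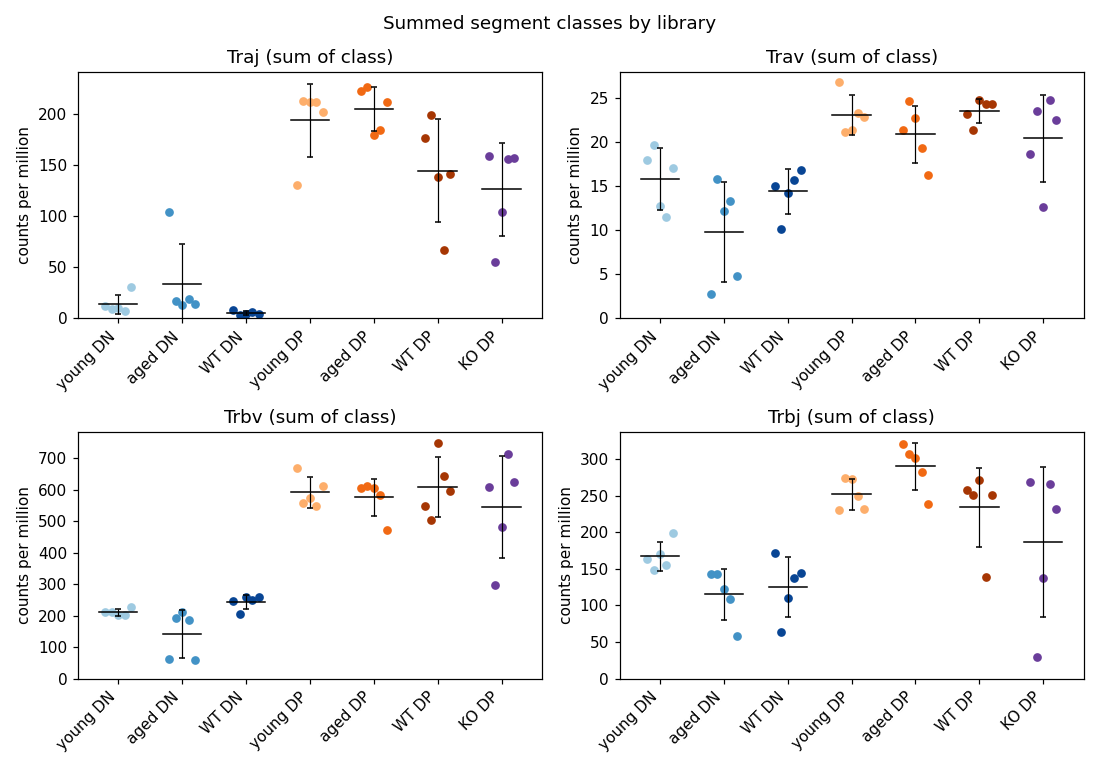
Summed level in CPM of the Traj, Trav, Trbv and Trbj segments in each library (dots, in replicate order), with the mean and SD of 5 libraries per group (bars). Traj sums lie at 7.28 to 30.4 in young DN and 131 to 213 in young DP libraries, and in KO DP the Trbj sum ranges from 30.0 to 269.

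The beta constant genes were already expressed in DN cells, and rose less than Trac. Trbc1 had 375, 344, 344, 344 and 389 CPM in young DN and 1015, 983, 809, 807 and 801 CPM in young DP libraries. Trbc2 had 531, 423, 391, 419 and 411 CPM and 1364, 1075, 1038, 987 and 1116 CPM. Neither gene overlapped between the stages. Trbc1 rose by log2 1.32 ± 0.080, 1.45 ± 0.38 and 1.11 ± 0.12 in young, aged and heterozygous mice (edgeR adjusted p = 1.4e-09, 0.011 and 2.9e-06), and Trbc2 by 1.38 ± 0.096, 1.88 ± 0.31 and 1.21 ± 0.13 (6.6e-09, 0.00095 and 3.9e-06). The share of Trbc1 in both was 45.4% ± 2.7 in young DN and 44.2% ± 2.3 in young DP libraries. It was 70.5% in aged DN 1 (9370 of 13299 counts, 95% interval 69.7% to 71.2%) and 46.8% to 48.8% in the other aged DN libraries.

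Of the 22 Trbv segments, 21 were tested in each stage comparison, and 21, 18 and 20 rose in young, aged and heterozygous mice. None fell. The summed Trbv level was 201 to 226 CPM in young DN and 549 to 668 CPM in young DP libraries. Trbv2 rose by log2 2.01 ± 0.089, 2.87 ± 0.51 and 1.79 ± 0.12 (edgeR adjusted p = 5.2e-11, 0.0016 and 4.0e-08). Trbv31, the segment that lies beyond the constant genes in inverted orientation, rose by log2 1.98 ± 0.17, 2.52 ± 0.38 and 2.03 ± 0.20 (edgeR adjusted p = 6.0e-08, 0.00060 and 1.5e-06).

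Trbv13-2 was the most abundant variable segment per kilobase in both stages, at 199 ± 20 CPM per kb in young DN and 344 ± 27 CPM per kb in young DP cells. Trbv12-2 came next, at 54.0 ± 4.5 and 155 ± 10 CPM per kb. Trbv13-2 had 67.9, 64.2, 63.8, 63.8 and 79.3 CPM in young DN and 123, 119, 110, 106 and 128 CPM in young DP libraries, which do not overlap. It rose by log2 0.80 ± 0.077 (edgeR adjusted p = 2.2e-07), less than the median Trbv segment at 1.71. Its share of Trbv counts was 32.2% ± 1.7 in young DN and 19.8% ± 1.2 in young DP libraries. It was 30.2% ± 3.5 against 19.2% ± 1.5 in aged mice and 28.6% ± 2.7 against 19.8% ± 2.1 in the heterozygous mice, again with no overlap.

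**Figure D4:**
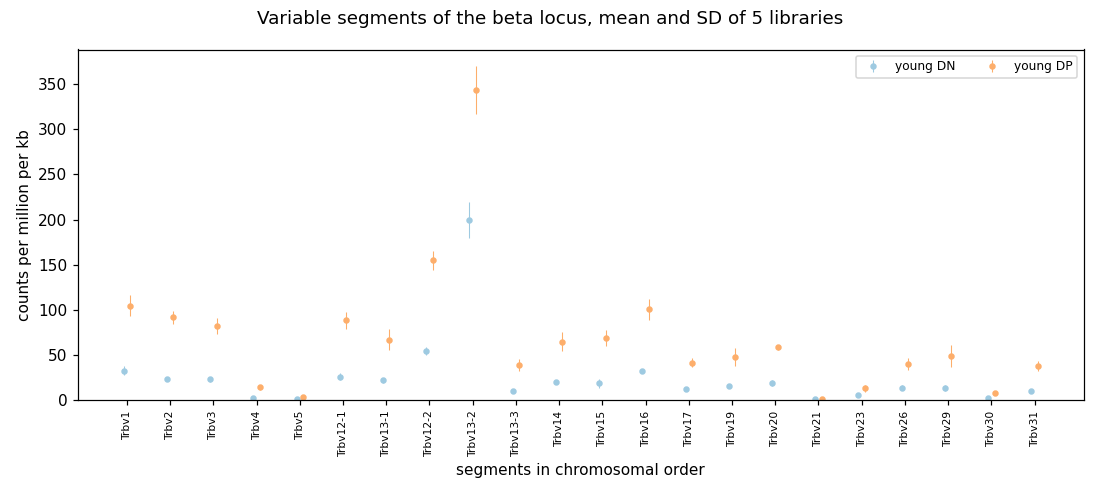
Level in CPM per kilobase of the 22 Trbv segments in chromosomal order in young DN and young DP cells, as the mean and SD of 5 libraries. Trbv13-2 is highest in both stages, at 199 and 344, and DP means lie above DN means.

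The first D and J segments of the beta locus moved against the others. Trbj1-1, the first of the Trbj segments, had 18.5, 14.6, 19.3, 16.9 and 21.7 CPM in young DN and 1.63, 2.25, 0.631, 2.26 and 0.537 CPM in young DP libraries. Every DP value was below every DN value. It fell 12.3-fold (log2 -3.62 ± 0.29, edgeR adjusted p = 3.4e-08). In young mice it passed the filter through DN cells alone, so it had to differ there. With no filter it was also called lower. In the heterozygous mice DN libraries had 14.4, 12.2, 11.4, 11.7 and 14.7 CPM and DP libraries 1.29, 1.35, 1.56, 2.05 and 2.03 CPM, again without overlap (log2 -2.94 ± 0.20, edgeR adjusted p = 5.3e-08). In aged mice DN libraries had 2.47, 14.1, 13.97, 9.66 and 5.60 CPM and DP libraries 2.83, 1.57, 1.30, 1.28 and 1.12 CPM. There aged DN 1 fell inside the DP range, and Trbj1-1 fell by log2 2.5015 ± 0.48 (edgeR adjusted p = 0.0024).

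The neighbouring Trbj1-2 did not fall in any cohort. It had 13.8 to 17.8 CPM in 4 young DN libraries and 10.9 CPM in young DN 2, against 15.4 to 18.7 CPM in young DP (log2 0.14 ± 0.13, edgeR adjusted p = 0.36). In aged mice Trbj1-2 rose by log2 1.48 ± 0.31 (edgeR adjusted p = 0.0040). In heterozygous mice it rose by log2 0.65 ± 0.27 (edgeR adjusted p = 0.047), a call lost without any 1 of 8 of the 10 libraries (0.053 to 0.11). As a share of Trbj counts, Trbj1-1 held 10.9% ± 0.61 in young DN and 0.58% ± 0.33 in young DP libraries.

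Trbd1, the D segment just before Trbj1-1, had 5.20, 3.46, 5.55, 4.88 and 4.41 CPM in young DN and 1.56, 0.699, 1.12, 0.863 and 0.604 CPM in young DP libraries. All DP values were below the DN values. It fell by log2 2.24 ± 0.28 in young and 2.30 ± 0.52 in heterozygous mice (edgeR adjusted p = 3.8e-06 and 0.0016). In both it passed the filter through DN cells alone, so it had to differ there. With no filter it was called lower in both. In aged mice it fell by log2 1.95 ± 0.54 (edgeR adjusted p = 0.015), a call lost with the replicate block (0.080). Trbd2, the second D segment, did not fall: it had 0.66 ± 0.43 CPM in young DN and 1.34 ± 0.55 CPM in young DP cells (log2 1.05 ± 0.48, edgeR adjusted p = 0.061). The call for Trbd2 turned on single libraries, since it passed at 0.032 to 0.049 without young DN 3, young DN 4, young DP 2 or young DP 5. The Trbd1 row is 12 bases long and the Trbd2 row 14 bases, so their counts depend on how short overlaps were counted.

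Most other Trbj segments rose. Besides Trbj1-1, 10 of 12 rose in young, 11 of 12 in aged and 11 of 12 in heterozygous mice. Trbj2-7, the last, had 9.65 ± 2.4 CPM in young DN and 31.1 ± 2.1 CPM in young DP cells, and rose by log2 1.71 ± 0.15, 1.82 ± 0.29 and 1.67 ± 0.33 (edgeR adjusted p = 6.2e-08, 0.00078 and 0.00058). Trbj1-5, the most abundant Trbj per kilobase in both stages of young mice, rose by log2 0.76 ± 0.096, 1.55 ± 0.25 and 1.15 ± 0.25 (edgeR adjusted p = 4.5e-06, 0.00099 and 0.0012). Segments of the Trbj1 cluster held 84.2% ± 2.0 of Trbj counts in young DN and 72.1% ± 1.6 in young DP libraries, without overlap. The ranges overlapped in aged mice, at 80.5% ± 2.6 and 76.4% ± 3.4, and in heterozygous mice, at 80.5% ± 6.0 and 74.0% ± 3.2. In a fit over all 35 libraries the young rises of Trbj1-3, Trbj1-4, Trbj1-5 and Trbj1-7 lost their calls (adjusted p = 0.44, 0.24, 0.051 and 0.16), and the falls of Trbj1-1 and Trbd1 did not (5.2e-09 and 0.0011).

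**Figure D5:**
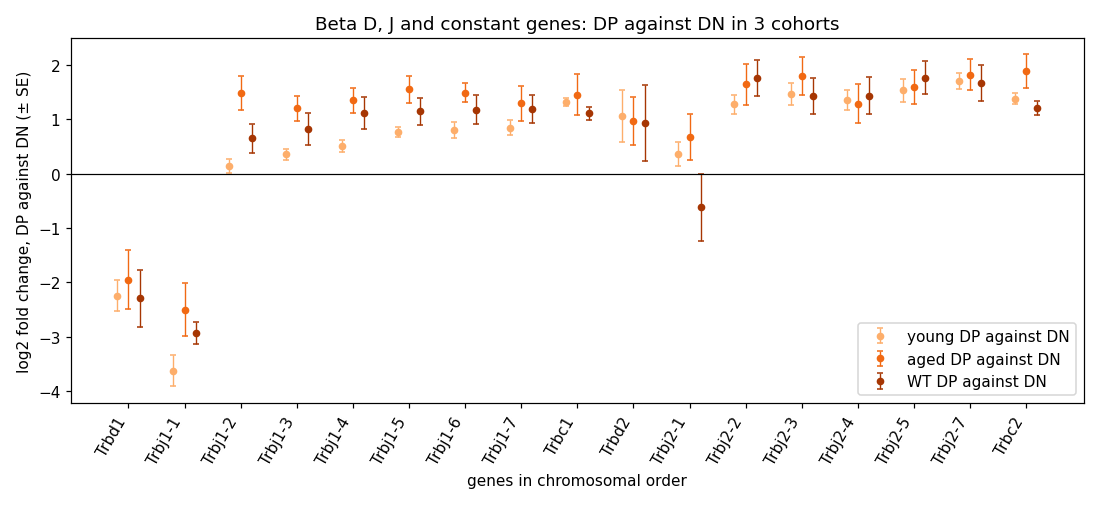
Log2 fold change of DP against DN cells, with SE from edgeR, for the Trbd, Trbj and Trbc genes in chromosomal order in the young, aged and heterozygous (WT) cohorts, each 5 against 5 libraries. Trbd1 and Trbj1-1 lie between -1.95 and -3.62 in all 3 cohorts, while the constant genes lie between 1.11 and 1.88.

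Gamma segments were nearly confined to the DN libraries. Trgv2 had 81.9, 92.9, 85.9, 72.2 and 75.2 CPM in young DN and 0.612, 0, 0.351, 0.0664 and 0.403 CPM in young DP libraries. The pooled young DP counts were 21 of 74760950, against 6234 of 73868246 in young DN. Trgv2 fell by log2 8.07 ± 0.24 in young, 7.20 ± 0.72 in aged and 7.15 ± 0.40 in heterozygous mice (edgeR adjusted p = 1.5e-12, 6.1e-05 and 8.9e-09). Trgj1, Trgj3 and Trgj4 fell in every DP against DN comparison in which they were tested, and none was called in either comparison within DN cells. In the stage comparisons Trgv2 and the Trgj segments passed the filter through DN cells alone, so they had to differ. With no filter Trgv2 and all 3 Trgj segments were called lower in each of them. Trgj3 had 538 counts over the young DN libraries and none over young DP, which allows up to 0.0401 CPM. Trgj1 had 595 and 6 counts, and Trgj4 1253 and 25 counts.

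The delta constant gene stayed measurable in DP cells. Trdc had 181, 190, 174, 170 and 173 CPM in young DN and 96.9, 88.7, 56.4, 86.8 and 72.5 CPM in young DP libraries, which do not overlap. It fell 2.18-fold in young mice (log2 -1.13 ± 0.11, edgeR adjusted p = 3.2e-07) and by log2 1.16 ± 0.092 in heterozygous mice (1.9e-07). In aged mice it fell by log2 1.24 ± 0.37 (edgeR adjusted p = 0.020), a call lost without aged DP 2 (0.050). There aged DN 5, with 61.4 CPM, lay below all aged DP libraries, and aged DN 1 had 392 CPM. Trdc overlaps Trdv5 and a predicted gene on the opposite strand, so reads of these rows cannot be told apart if strand was not used. The same limit holds for Trdj1, Trdj2, Trdv2-1, Trdv2-2, Trdv4, Trdd1 and Trdd2, each of which overlaps a predicted gene on the opposite strand. Trbv4 and Trbv5 overlap another row on their own strand.

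Some of the other delta segments fell as well. Trdj1 fell by log2 1.90 ± 0.43, 1.61 ± 0.42 and 1.29 ± 0.35 (edgeR adjusted p = 0.0010, 0.011 and 0.0054). In each of these comparisons it passed the filter through DN cells alone, so it had to differ. With no filter both Trdj segments were called lower in young and aged mice, and 1 of them in heterozygous mice. Trdj2 fell in young mice by log2 0.94 ± 0.26 (edgeR adjusted p = 0.0049) and had log2 -0.29 ± 0.31 in heterozygous mice (0.44). In aged mice it fell by log2 1.86 ± 0.63 (edgeR adjusted p = 0.035), a call lost with the replicate block (0.063). It was also lost without aged DN 1 or any 1 aged DP library (0.052 to 0.082). Trdv2-2 passed in none of the stage comparisons, with log2 -0.20 ± 0.28, 0.25 ± 0.54 and 0.37 ± 0.26 (edgeR adjusted p = 0.54, 0.73 and 0.24). Trdv1 had 2.23 ± 0.42 CPM in young DN and 3.15 ± 0.72 CPM in young DP cells and was not called. Without young DN 5 or young DP 3 it passed (0.045 and 0.048), and in aged mice it passed without aged DN 2 (0.021) and with the replicate block (0.038).

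Trdv5 fell in young and heterozygous mice by log2 0.85 ± 0.16 and 0.89 ± 0.17 (edgeR adjusted p = 0.00028 and 0.00037). In the fit over all 35 libraries both calls were lost (0.12 and 0.092), as were those of Trdj2 in young (0.15) and Trdj1 in heterozygous mice (0.063). In aged DN libraries it had 79.3, 10.8, 11.9, 9.94 and 1.95 CPM, aged DN 1 being far above the rest (aged stage comparison log2 -1.51 ± 0.76, edgeR adjusted p = 0.13). It passed without aged DN 5 (0.035). Trdv4, a variable segment of early gamma delta T cells, had 1.20, 1.75, 1.39, 12.4 and 3.48 CPM in aged DN and 0.596, 0.150, 0.273, 0.0711 and 0.497 CPM in aged DP libraries, without overlap. It fell by log2 3.63 ± 0.82 (edgeR adjusted p = 0.0055). It passed the filter there through aged DN cells alone, so it had to differ, and it was not tested in the young or heterozygous stage comparison. Trdd1 and Trdd2 did not pass the filter. Trdd2 had 13 counts over young DN and 1 over young DP libraries, 25 and 2 in aged and 18 and 1 in heterozygous mice. With no filter it was called lower in aged mice, and neither Trdd was called in young or heterozygous mice. Trdd1 had 1 count over young DN and 5 over young DP libraries.

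Genes that cut, join or assemble receptors were read beside the segments, from a list of 28 of which 27 were found. In young mice 21 rose and 6 fell in DP cells (median log2 0.66), where 33.9% of all genes tested rose and 36.5% fell. Rag1 and Rag2, the recombinase, rose by log2 2.90 ± 0.14 and 2.34 ± 0.092 (edgeR adjusted p = 1.4e-10 and 1.7e-11). Ptcra, the surrogate alpha chain that pairs with beta before alpha exists, fell by log2 1.39 ± 0.13 (edgeR adjusted p = 1.2e-07). In aged mice 16 rose and 2 fell, where 18.6% of all genes tested rose and 24.6% fell, and in heterozygous mice 19 rose and 5 fell, where 30.2% rose and 33.7% fell.

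The DP libraries labelled Mettl3 knockout (KO DP) were tested against the heterozygous DP libraries. None of the 99 segments tested was called, where 1.59% of all genes tested were. At an unadjusted p under 0.05 there was 1, Trdc, with 76.3, 86.5, 82.4, 106 and 87.9 CPM in WT DP and 98.8, 142, 91.4, 104 and 113 CPM in KO DP libraries. The groups overlapped (log2 0.33 ± 0.13, edgeR adjusted p = 0.28). DESeq2 also called 0. The median log2 difference was -0.19 over the segments and -0.01 over all genes tested. Without KO DP 2 the segments' median was -0.0025 and the count called was again 0, where 3.92% of all genes were called. Of the 99, 96 lay within 1 log2 unit of no change.

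KO DP 2 set much of the spread. Trac had 410, 718, 486, 414 and 373 CPM in KO DP libraries, against 395, 375, 353, 468 and 390 CPM in WT DP (log2 0.29 ± 0.17, edgeR adjusted p = 0.45). Trbc1 had 992, 2162, 1217, 1126 and 953 CPM in KO DP. While its constant genes were high, KO DP 2 had a Trbj sum of 30.0 CPM, where the remaining 4 had 138 to 269 CPM. Its Trbj counts were 0.772 per 100 Trbc counts, against 5.63 to 12.9 in the rest. Traj58 made up 31.0% of its Traj counts, 225 of 726 (Clopper-Pearson 95% interval 27.6% to 34.5%), where the remaining KO DP libraries had 1.02% to 2.77%. Low J against C counts were not particular to it: WT DP 4 had 5.17 Trbj per 100 Trbc counts and KO DP 3 had 5.63, against 11.2 to 14.4 in the remaining WT DP and KO DP libraries.

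Recombination genes did not pass the test between these groups either. Rag1 had 6198 ± 856 CPM in WT DP and 3944 ± 1284 CPM in KO DP cells (log2 -0.65 ± 0.21, edgeR adjusted p = 0.18), and Ptcra 31.8 ± 5.8 and 55.8 ± 23 CPM (log2 0.82 ± 0.23, edgeR adjusted p = 0.12). None of the 27 listed genes was called. Summed DP markers were 16279 to 18205 CPM in WT DP and 11575 to 14976 CPM in KO DP libraries, and summed DN markers 43.4 to 61.0 and 70.6 to 202 CPM. Mature single positive markers summed to 279 to 318 CPM in WT DP and 458 to 866 CPM in KO DP libraries, B cell markers to 597 to 747 and 934 to 1118 CPM, and NKT and NK markers to 9.27 to 14.6 and 17.7 to 43.0 CPM. None of these 5 ranges overlapped. The ranges of the gamma delta and innate-like markers did, at 893 to 944 CPM in WT DP and 775 to 1212 CPM in KO DP libraries. Il7r is in both the DN and the mature single positive list, so their sums are not independent. The part of the markers in the segment values was not tested.

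No segment was called for age in either stage. In DP cells 0 of 105 segments tested were called between 60 and 10 weeks, where 0.942% of all genes tested were. At an unadjusted p under 0.05 there were 9, with no share of all genes to set beside them, and DESeq2 called 0. The smallest adjusted p belonged to Trbj1-4, with 32.3 ± 2.6 CPM in young and 40.1 ± 3.6 CPM in aged DP cells (log2 0.32 ± 0.089, edgeR adjusted p = 0.12). Trbj1-2, Trbj1-3, Trbj1-5 and Trbj1-6 were also among the 9, with log2 0.28 to 0.40 (edgeR adjusted p = 0.14 to 0.24). The median log2 over the segments was 0.01, against 0.0042 over all genes tested. The Traj level profiles of young and aged DP cells had means within each other's spread at their highest segments, Traj7 at 12.6 ± 3.9 and 13.7 ± 1.3 CPM and Traj2 at 11.4 ± 2.2 and 12.8 ± 3.1 CPM.

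In DN cells 0 of 59 segments were called for age, where 0.245% of all genes tested were. At an unadjusted p under 0.05 there were 8, and DESeq2 called 3 (3.85% of all genes), which were Trdv4, Trbv20 and Trav13-4-dv7. Trdv4 had 0.333, 0.378, 0.935, 0.146 and 0.583 CPM in young DN libraries, all below the 5 aged DN values given above (log2 3.09 ± 0.76, edgeR adjusted p = 0.12). Here too it passed the filter through aged DN cells alone. The sums of 3 marker lists did not overlap between young and aged DN libraries, at 415 to 482 and 632 to 11596 CPM for gamma delta and innate-like T cells, 141 to 217 and 296 to 897 CPM for NKT and NK cells, and 998 to 1261 and 1704 to 7022 CPM for mature single positive cells. Zbtb16 is in both the gamma delta and innate-like and the NKT and NK list, so their sums are not independent. The part of these lists in the values was not tested. The fit over all 35 libraries called 7 segments (14% of all genes). Without aged DN 1 and aged DN 5, where 5.14% of all genes were called, edgeR called Trdv4 higher (log2 3.41, adjusted p = 0.019) and Trbj1-5 lower (log2 -0.48, 0.026). The age by stage interaction, which asks whether the age difference was the same in DP and DN cells, was called for 0 of 111 segments. At an unadjusted p under 0.05 there were 18, again with no share of all genes beside them. DESeq2 called 1 (0.319% of all genes), Trbj1-2 (edgeR log2 1.35 ± 0.34, adjusted p = 0.27). Without the 4 aged libraries that stood apart, where 0.476% of all genes were called, edgeR called 2, Trbj1-2 and Trbj1-5 (log2 1.00 and 0.78, adjusted p = 0.032 and 0.026). The comparison called 1 gene among all tested, or 0.00679%.

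The 2 sets of controls aged 10 weeks also differed in genotype, with and without Cd4Cre and 1 floxed allele. In DP cells 0 of 103 segments were called between WT DP and young DP, where 0.589% of all genes tested were. At an unadjusted p under 0.05 there were 6, and DESeq2 called 0. In DN cells 3 of 52 were called, where 25.1% of all genes tested were. Trbc1 rose in WT DN by log2 0.42 ± 0.084 (edgeR adjusted p = 0.0056), at 466, 579, 479, 440 and 499 CPM, all above the young DN values. Trbj1-1 fell by log2 0.53 ± 0.13 (edgeR adjusted p = 0.015) and Trbj1-5 by 0.56 ± 0.18 (0.041). The call of Trbj1-5 was kept only when WT DN 2 or WT DN 4 was the library left out, and it was lost without any 1 of the other 8 (0.055 to 0.097). Without WT DN 2, 11 of 54 segments were called (31.5% of all genes), and without WT DN 4, 6 of 54 (23.7% of all genes). When all 35 libraries entered 1 edgeR fit, Trbc1, Trbj1-1 and Trbj1-5 lost their calls (adjusted p = 0.25, 0.39 and 0.30), and 14 of the 115 segments tested, none of these 3, were called (11.3% of all genes). With no filter Trbj1-5 was also lost (0.051), and 9 of 122 were called (12.7% of all genes). DESeq2 called 12 of 121 (17.7% of all genes) and the replicate block 5 of 52 (17.3% of all genes). These comparisons share the young or the WT libraries with those above, so they are not independent of them.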

How the data were processed

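Bulk RNA-seq of sorted mouse thymocytes was analysed in 35 libraries, 7 groups of 5, from the table of read counts per gene that the authors deposited. Per the labels' protocols, RNA was taken with Trizol and a Direct-zol Microprep kit and sequenced by a BGI library protocol. STAR 2.5.1 and HTSeq 2.0.3 are named in the submitters' processing notes, beside Subread, Trim Galore 0.4, bcl2fastq and DESeq2. Those notes list the builds GRCm39 and mm10, and give none of these a role. Row identifiers are those of a C57BL/6NJ annotation. Which tool made the counts and whether strand was used is not given in the sources used here. Knockout DN cells were not analysed here.

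Counts were scaled by TMM and tested with edgeR 4.0.16 in R 4.3.3 (quasi-likelihood, filterByExpr with a minimum count of 10 and total of 15), on the 2 groups compared, with Benjamini-Hochberg adjustment over all genes tested at 0.05. The age by stage interaction used the 4 wild-type groups. DESeq2 1.42.0, no filter, a fit over all libraries, a replicate block and leaving out libraries were alternatives. The fits were tested on simulated data. Counting intervals are Clopper-Pearson at 95%, floors are 3 counts over a group, and both cover counting error only. Totals ran from 12391908 to 18820157 counts, and no pair of libraries was identical.

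Replicate numbers are shared by all groups. Deviations of same-numbered libraries from their group means correlated above 0.1 in every pair only for aged DP against aged DN (0.20, 0.13, 0.19, 0.13 and 0.29). There the replicate block called 83 segments, against 79 without it.

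The segments, gene lists, markers and tests were chosen with earlier results of these data known. Named by rule were the constant genes, D segments, Trgv and Trdv segments, those of the NKT and MAIT receptors, the first, last and most abundant segments per kilobase of the Trav, Traj, Trbv and Trbj classes, and those with the smallest adjusted p in each class and comparison. Trbj1-2, Trbj1-7, Traj56, Traj57, Traj58 and Trav13-4-dv7 were named after their values were seen. Sequences came from GENCODE vM21 transcripts, matched by symbol.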

Additional observations from a re-analysis of the deposited data

Results flagged for a closer look

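In 43 of 252 sets of 5 libraries tested, 1 library lay far from the other 4, where chance flags about 1 in 20. Several share a library or a read, so they are not independent.

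Aged DN 1 was flagged most often. It was highest for the Traj sum (104 against at most 19.3 CPM), the Trdv sum (81.6 against 25.5 CPM), Trac (138 against 67.6 CPM), Trdv5 (79.3 against 11.9 CPM), Traj58 (16.5 against 1.07 CPM), Traj2 (3.74 against 1.36 CPM) and Traj7 (3.74 against 0.966 CPM). Its Trbc1 share was 70.5% against 48.8%, and its Traj counts were 75.2 per 100 Trac counts against 31.3. It was lowest for Trbj1-1 in Trbj (1.72% against 8.88%), for Trav17 and Trav18 in Trav (51.3% against 64.9%) and for Trbv counts per 100 Trbc counts (6.60 against 26.0).

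KO DP 2 was highest for Trbc1 (2160 against 1220 CPM), Trbc2 (1720 against 1250 CPM), Traj58 (17.1 against 4.34 CPM), Traj58 in Traj (31.0% against 2.77%) and Trbj1-1 in Trbj (5.57% against 1.05%). Its Traj position was lowest, at 0.47 against 0.66.

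WT DN 2 was highest for Traj58 (1.48 against 0.482 CPM), its share of Traj (42.6% against 8.16%) and the share of Trbj1-1 in Trbj (19.3% against 10.4%). It was lowest for the Trbv sum (204 against 245 CPM), the Trdj sum (3.42 against 5.82 CPM) and Trbv counts per 100 Trbc counts (17.8 against 25.4).

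Among the other DN libraries, young DN 5 was highest for the Traj sum (30.4 CPM), Trac (75.1 CPM) and Trbv13-2 (79.3 CPM), and young DN 1 for Trbc2 (531 CPM). Aged DN 4 was highest for Trdv4 (12.4 CPM) and WT DN 3 for Traj7 (0.86 CPM).

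Among the other DP libraries, young DP 1 was lowest for the Traj sum (131 CPM) and for Traj counts per 100 Trac counts (30.8). Aged DP 1 was highest for the Trdj sum (5.51 CPM), Trbj1-1 (2.83 CPM), its share of Trbj (0.882%) and Traj58 (5.37 CPM), and aged DP 5 was lowest for the Trbv sum (472 CPM). WT DP 3 was highest for the Trbd sum (3.73 CPM), Trbd1 (1.90 CPM) and Trbd2 (1.83 CPM). WT DP 4 was lowest for the Trbj sum (139 CPM) and highest for Traj58 in Traj (6.33%), and WT DP 5 was highest for the Trdj sum (3.75 CPM).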

How the results depend on the processing

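Of 131 results for single named segments, each under several alternatives (2182 in all), 2139 kept their call, 43 lost it and 0 reversed. Naming favoured small adjusted p, so these numbers do not stand for the segments at large. The largest number of single libraries that each changed a call was 9, for the unnamed Traj44 in the aged stage comparison. The fit over all 35 libraries lost 14, leaving out 1 library 25, the replicate block 3 and no filter 1. For aged DN against young DN, where 0 segments were called, DESeq2 called 3, the fit over all libraries 7 and the fit without the libraries that stood apart 2. For WT DN against young DN, where 3 were called, DESeq2 called 12, no filter 9, the fit over all libraries 14, none of them those 3, the replicate block 5 and the fit without WT DN 2 called 11. For the age by stage interaction, DESeq2 called 1 and the fit without the libraries that stood apart 2. The causes were not tested.

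On the scale of genomic distance in place of order, the Trav position of DP minus DN was -0.182 in young and -0.138 in heterozygous mice, against -0.135 and -0.103 by order. With 1 library left out, calls ran from 94 to 101 (young stage comparison), 72 to 91 (aged), 77 to 92 (heterozygous) and 2 to 11 (WT DN against young DN), and stayed at 0 in the other 5 comparisons. The Trav position difference ran from -0.150 to -0.114 (young), -0.092 to -0.057 (aged) and -0.111 to -0.098 (heterozygous) between stages. It ran from 0.006 to 0.034 for KO DP against WT DP, 0.016 to 0.052 for age in DP, -0.039 to -0.007 for age in DN and 0.007 to 0.043 for WT DP against young DP. The Traj difference ran from -0.009 to 0.024, 0.002 to 0.077 and -0.073 to 0.057 between stages, and in the same order of the others from -0.040 to 0.014, -0.003 to 0.023, -0.059 to 0.016 and -0.025 to 0.002. Outside aged DP against aged DN, same-numbered libraries share only a number, and the replicate block there called 94 segments in young and 78 in heterozygous mice, against 93 and 81. Depth limits Trav and Trdd segments and Traj segments in WT DN most.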
